A study of Mus musculus with 9 samples.

Results

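The core markers of plaque-associated microglia are genes that microglia switch on around amyloid deposits. The set considered here held 10 genes: Itgax, Clec7a, Cd9, Gpnmb and Ank at the cell surface or in membranes, Spp1, Igf1, Lgals3 and Dkk2 among secreted proteins, and Baiap2l2 among cytoskeletal adaptors. Each was read from the array rows that carry its symbol alone, and the row with the brightest mean stood for the gene. In this way 9 of the 10 genes were found among 22180 genes tested. Spp1, which encodes osteopontin, had no row with its symbol alone, so its level was not analysed here.

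Expression was measured with 9 one-colour arrays on microglia sorted by FACS from the brains of female C57Bl/6 mice aged 24 to 28 weeks, with 3 arrays per genotype. The FAD DKO group carried a familial Alzheimer's disease (FAD) transgenic background, floxed Hdac1 and Hdac2 alleles and Cx3cr1CreERT2, a tamoxifen-inducible Cre driven from the Cx3cr1 gene, which is active in microglia and in other myeloid cells that express this receptor. The FAD group carried the transgenic background and the floxed alleles without the Cre, and the wild type group is labelled as wild type only. All 3 groups received 8 mg of tamoxifen at 6 weeks of age, so the drug was common to them and the Cre was not. The labels do not say that the arrays of a group came from separate mice, and the spread behind each p-value is that of these samples, part of which may be technical. The arrays' number limits the precision.

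Microglia that touch amyloid plaques leave their resting programme and take up a state with raised lipid handling, lysosomal and adhesion genes. Full entry into this state depends on the lipid-sensing receptor TREM2. Its surface markers are used to isolate or stain such cells, and its secreted products act on matrix, growth factor receptors and Wnt signalling. HDAC1 and HDAC2 are histone deacetylases that work in corepressor complexes. The marker genes are compared here among wild type microglia and microglia of an amyloid model with and without deletion of both enzymes.

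The labelled cell type was checked first. The microglial genes Cx3cr1, Csf1r, Aif1, P2ry12 and Tmem119 were bright on every array, with a list mean between 11.03 and 11.20 on the log2 scale. Hdac1 averaged 7.56 ± 0.13 in FAD DKO, 8.12 ± 0.086 in FAD and 8.44 ± 0.318 in wild type (log2 signal, SD, n = 3). Hdac2 averaged 7.80 ± 0.164 in FAD DKO, 8.48 ± 0.107 in FAD and 8.29 ± 0.086 in wild type (SD, n = 3). For both genes the highest FAD DKO array was still lower than any array of the other groups. The log2 difference between FAD DKO and FAD was -0.56 for Hdac1 (limma adjusted p = 0.376) and -0.68 for Hdac2 (adjusted p = 0.159), so neither passed. Whether their probes lie inside the deleted exons is not known here. Array medians lay between 5.35 and 5.40.

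The sequences upstream of 4 surface and membrane genes are shown because these genes held 4 of the 5 largest differences between FAD DKO and wild type among the markers, and 2 of them, Itgax and Ank, passed the test. Each run covers the 225 bases from 250 to 26 bases before an annotated RefSeq start (build GRCm38.p6), written 5′ to 3′ along the gene's strand. Capitals mark GGAA or TTCC, the core of ETS family motifs such as that of PU.1, and TGANTCA, the AP-1 motif.
Itgax (chr7:128129300-128129524, plus strand): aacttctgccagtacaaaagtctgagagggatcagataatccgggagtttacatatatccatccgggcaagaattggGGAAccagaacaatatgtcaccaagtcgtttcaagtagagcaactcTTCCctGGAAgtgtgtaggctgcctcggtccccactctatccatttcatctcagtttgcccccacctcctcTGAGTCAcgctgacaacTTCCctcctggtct
Ank (chr15:27466427-27466651, plus strand): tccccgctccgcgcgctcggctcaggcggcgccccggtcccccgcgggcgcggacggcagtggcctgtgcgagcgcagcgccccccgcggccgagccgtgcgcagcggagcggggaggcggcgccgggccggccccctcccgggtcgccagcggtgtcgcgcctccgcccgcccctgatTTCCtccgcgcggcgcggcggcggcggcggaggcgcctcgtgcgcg
Clec7a (chr6:129472805-129473029, minus strand): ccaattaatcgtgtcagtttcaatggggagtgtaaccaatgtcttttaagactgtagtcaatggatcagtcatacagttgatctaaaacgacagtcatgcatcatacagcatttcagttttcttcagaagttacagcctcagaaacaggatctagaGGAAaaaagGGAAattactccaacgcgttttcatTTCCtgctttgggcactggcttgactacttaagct
Gpnmb (chr6:49036268-49036492, plus strand): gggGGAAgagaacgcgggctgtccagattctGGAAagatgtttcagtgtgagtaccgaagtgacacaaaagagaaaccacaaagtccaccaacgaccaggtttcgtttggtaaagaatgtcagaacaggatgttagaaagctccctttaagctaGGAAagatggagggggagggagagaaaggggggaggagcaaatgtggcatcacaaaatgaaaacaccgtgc

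Windows of this kind were found for 9 of the 10 genes, Spp1 included, and Baiap2l2 had none in the table used. Searched on both strands, GGAA occurred in all 9 genes, with 1 to 6 matches in a window. This motif is short and stood in 91.5% of all 32851 promoter windows of the same length. TGANTCA occurred in 2 of the 9 genes, Itgax and Igf1, against 6.24% of all windows; in the Itgax window it starts 56 bases before the start. CACGTG, the E-box read by MITF and TFE factors, was in 0 of the 9 genes and in 5.16% of all windows. These are matches of letters and not measured binding.

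Itgax and Ank rose in FAD DKO microglia against wild type microglia, by 4.50-fold and 2.77-fold. Of all genes, 0.0947% passed upwards in this comparison. Itgax kept its call in 2 and Ank in 4 of the 9 fits that left out 1 array. The other 7 measured markers also had a higher mean in FAD DKO than in wild type but did not pass the test. The FAD mean lay between the means of FAD DKO and wild type for 7 of the 9 genes. Gpnmb, Igf1 and Clec7a stood at 4.77, 3.67 and 3.18 times their wild type signal without passing the test across all genes. Lgals3 and Baiap2l2 stood at 1.11 and 1.18 times theirs. Between FAD DKO and FAD, 0 of the 9 genes passed, where 0.0225% of all genes did. In bulk samples, fewer cells of a type and less RNA per cell cannot be told apart.

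**Figure D1:**
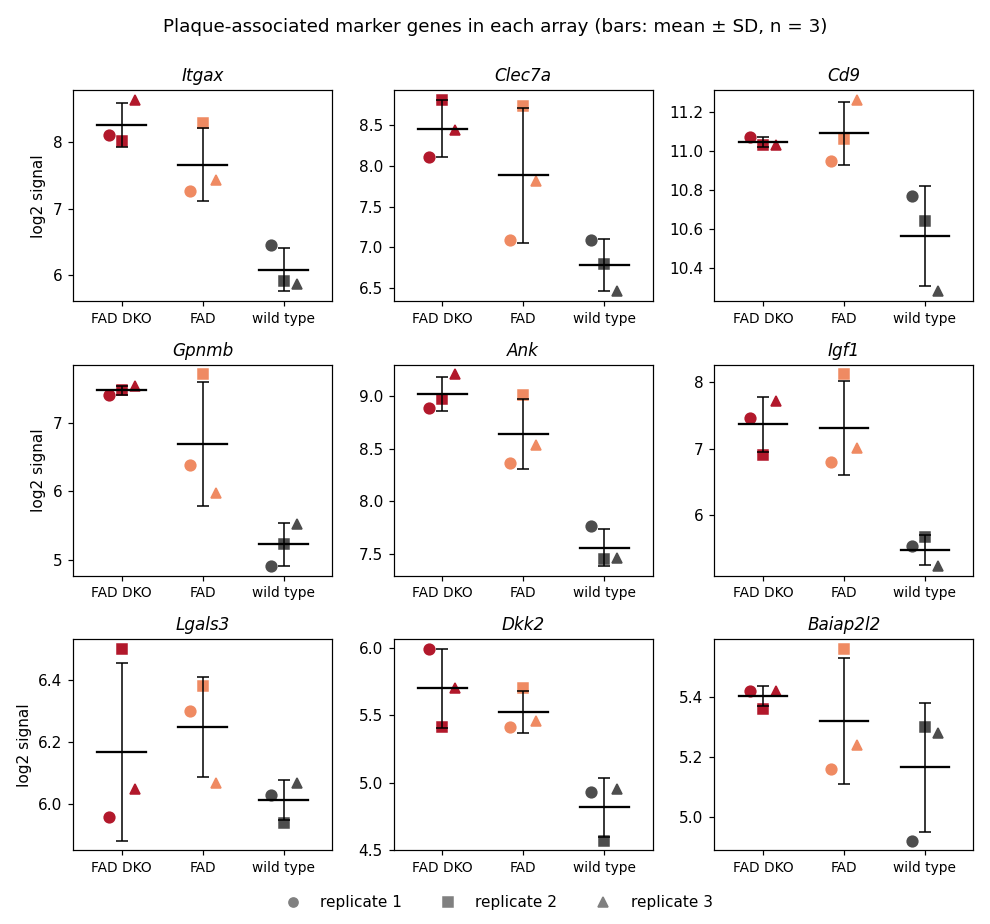
Log2 signal of the 9 measured marker genes (vertical axes, scaled to each gene) in FAD DKO, FAD and wild type microglia, with 1 point per array and bars for the mean and SD of 3 arrays. Every FAD DKO point lies above every wild type point in all genes but Lgals3, and the FAD points are widely spread for Clec7a, Gpnmb and Igf1.

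Itgax encodes integrin alpha X (CD11c), which pairs with the beta subunit Itgb2 and marks microglia at plaques. It read 8.11, 8.02 and 8.63 in the FAD DKO arrays, 7.27, 8.29 and 7.43 in the FAD arrays, and 6.46, 5.92 and 5.87 in the wild type arrays (log2 signal, replicates 1 to 3). All arrays of both FAD genotypes lay above all wild type arrays, and FAD replicate 2 lay within the FAD DKO range. The log2 difference was 2.17 between FAD DKO and wild type (SE 0.282, limma adjusted p = 0.0319) and 1.58 between FAD and wild type (adjusted p = 0.141). Between FAD DKO and FAD it was 0.59, with a 95% interval from -0.04 to 1.23 (adjusted p = 0.631).

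Ank encodes a membrane protein that exports pyrophosphate and so limits mineral deposition. Its signal was 8.89, 8.98 and 9.21 in FAD DKO, 8.36, 9.01 and 8.54 in FAD, and 7.76, 7.45 and 7.46 in wild type. The FAD genotypes again did not overlap with wild type, and FAD replicate 2 was the one FAD array inside the FAD DKO range. The log2 difference was 1.47 between FAD DKO and wild type (SE 0.168, limma adjusted p = 0.0249) and 1.08 between FAD and wild type (adjusted p = 0.0959). Between FAD DKO and FAD it was 0.38, with a 95% interval from 0.0026 to 0.76 and an unadjusted p of 0.0488 (adjusted p = 0.614).

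Gpnmb encodes a transmembrane glycoprotein of lysosomes and the cell surface that is raised in lipid-laden phagocytes. It read 7.41, 7.49 and 7.54 in FAD DKO, 6.39, 7.71 and 5.98 in FAD, and 4.91, 5.23 and 5.53 in wild type. The FAD DKO arrays lay within 0.127 of each other on the log2 scale, whereas the FAD arrays spanned 1.73, with replicate 2 above every FAD DKO array and the other 2 below. The log2 difference from wild type was 2.25 in FAD DKO (limma adjusted p = 0.0697) and 1.47 in FAD (adjusted p = 0.358). Without FAD replicate 2, the FAD difference was 0.96. Its mean wild type level of 5.23 was dimmer than the median probe set of the array (5.35), where RMA compresses differences.

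Clec7a encodes Dectin-1, a C-type lectin that signals through the kinase Syk. It read 8.11, 8.81 and 8.44 in FAD DKO, 7.09, 8.74 and 7.82 in FAD, and 7.09, 6.80 and 6.46 in wild type. The FAD DKO arrays lay clear of wild type, while FAD replicate 1 and wild type replicate 1 were equal to 2 decimals. The log2 difference from wild type was 1.67 in FAD DKO (limma adjusted p = 0.181) and 1.10 in FAD (adjusted p = 0.506). Without FAD replicate 2 the FAD difference was 0.67, and without FAD replicate 1 it was 1.49.

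Cd9 encodes a tetraspanin that organises membrane microdomains, and it is also expressed in the oligodendrocyte lineage. It was bright on all arrays, at 11.07, 11.03 and 11.03 in FAD DKO, 10.95, 11.06 and 11.26 in FAD, and 10.77, 10.64 and 10.28 in wild type. Both FAD genotypes lay above wild type with no overlap, by a log2 difference of 0.48 in FAD DKO (limma adjusted p = 0.304) and 0.53 in FAD (adjusted p = 0.344). Cd9 was the only one of the 9 genes with 2 probe sets. The dimmer one, near 6 on the log2 scale, differed from wild type by 0.09 in FAD DKO and by 0.27 in FAD, so the probe sets differ in size but not in direction.

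Igf1 encodes insulin-like growth factor 1, a secreted ligand of the receptor Igf1r that acts on neurons and glia. It read 7.46, 6.91 and 7.72 in FAD DKO, 6.80, 8.11 and 7.01 in FAD, and 5.54, 5.68 and 5.24 in wild type. The lowest FAD array stood 1.12 and the lowest FAD DKO array 1.23 log2 units above the highest wild type array, and the FAD DKO and FAD arrays were interleaved. The log2 difference from wild type was 1.88 in FAD DKO (limma adjusted p = 0.0819) and 1.82 in FAD (adjusted p = 0.155). Between FAD DKO and FAD it was 0.05, with a 95% interval from -0.70 to 0.80, a range from 0.617-fold to 1.75-fold. Its direction turned when FAD replicate 1 was left out (-0.20), FAD replicate 3 (-0.10) or FAD DKO replicate 3 (-0.13).

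Dkk2 encodes a secreted antagonist of Wnt signalling that binds the co-receptors Lrp5 and Lrp6. It read 5.99, 5.41 and 5.70 in FAD DKO, 5.41, 5.70 and 5.46 in FAD, and 4.93, 4.57 and 4.95 in wild type. The wild type arrays were the 3 lowest, and the FAD genotypes overlapped. The log2 difference from wild type was 0.88 in FAD DKO (limma adjusted p = 0.0928) and 0.71 in FAD (adjusted p = 0.291). Its wild type mean of 4.82 was likewise dimmer than the median probe set.

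Lgals3 encodes galectin-3, a secreted lectin that binds beta-galactosides on damaged membranes and surface receptors. It read 5.96, 6.50 and 6.05 in FAD DKO, 6.30, 6.38 and 6.07 in FAD, and 6.03, 5.94 and 6.07 in wild type. FAD DKO overlapped with both other groups, and the FAD and wild type arrays met at 6.07. The log2 difference from wild type was 0.15 in FAD DKO, with a 95% interval from -0.16 to 0.47 (limma adjusted p = 0.828), and 0.23 in FAD (interval -0.08 to 0.55, adjusted p = 0.695). Without FAD DKO replicate 2 the FAD DKO difference turned to -0.0086.

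Baiap2l2 encodes an I-BAR domain protein that binds membrane and actin. It read 5.42, 5.36 and 5.42 in FAD DKO, 5.16, 5.56 and 5.24 in FAD, and 4.92, 5.30 and 5.28 in wild type. Each FAD DKO array lay above each wild type array by a narrow margin of 0.0662 or more, while FAD overlapped with both. The log2 difference from wild type was 0.24 in FAD DKO (95% interval -0.05 to 0.53, limma adjusted p = 0.692) and 0.16 in FAD (adjusted p = 0.777). Baiap2l2 and Dkk2 were the 2 markers whose mean over the 9 arrays was dimmer than the median probe set.

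**Figure D2:**
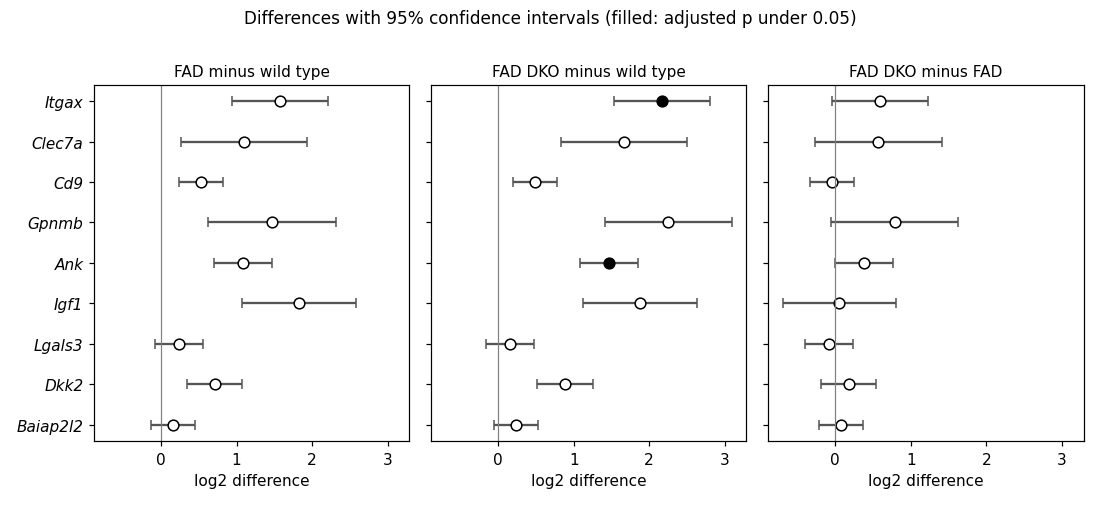
Log2 difference of each marker gene (points) with its 95% confidence interval from limma (bars) for FAD minus wild type, FAD DKO minus wild type and FAD DKO minus FAD. Itgax and Ank in FAD DKO against wild type are the filled points, and all intervals of FAD DKO minus FAD but that of Ank include 0.

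Set against wild type, FAD microglia show how these genes stand in the amyloid model with both deacetylases present. The floxed alleles may differ here together with the transgenic background, since the wild type group is labelled as wild type only. All 9 genes had a difference above 0, as did 47.9% of all genes, and their median was 1.08 (log2) against -0.01 over all genes. In limma, 0 of 9 passed an adjusted p under 0.05, where 0.0406% of all genes passed and 0.0316% passed upwards. At an unadjusted p under 0.05 there were 7 of 9, all higher in FAD, where 8.43% of all genes had such a p and 4.41% in this direction. For 7 of 9 genes every FAD array lay above every wild type array, against 6.37% of all genes (11.8% in either direction). This count holds Clec7a, whose closest arrays were only 1.2e-05 apart on the log2 scale, and not Lgals3, whose closest arrays had the same value. By size of the difference, Igf1 stood at rank 7, Itgax at rank 12 and Gpnmb at rank 14 of 22180 genes. Without FAD replicate 2 the median of the 9 genes was 0.67.

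The comparison of FAD DKO with wild type gives the same genes with the transgenic background, the deletion and the Cre differing together. The floxed alleles may differ as well, since the wild type label does not mention them. The parts of these factors cannot be told apart here. All 9 differences were above 0, as were 51.3% of all genes, with a median of 1.47 against 0.00 over all genes. Itgax and Ank passed in limma, which is 2 of 9, where 0.14% of all genes passed and 0.0947% passed in this direction. At an unadjusted p under 0.05 there were 7 of 9, all higher in FAD DKO, where 8.14% of all genes had such a p and 3.95% in this direction. The groups did not overlap for 8 of 9 genes, against 5.77% of all genes. By size, Gpnmb stood at rank 6, Itgax at rank 8, Igf1 at rank 10, Clec7a at rank 14 and Ank at rank 16 of 22180 genes. Itgax kept its call in 2 of the 9 fits that left out 1 array, and Ank in 4 of 9. The call of Itgax was lost without FAD DKO replicate 1 (adjusted p = 0.117), replicate 2 (0.0929) or replicate 3 (0.138), without FAD replicate 3 (0.0555), and without wild type replicate 1 (0.0628), replicate 2 (0.154) or replicate 3 (0.149). The call of Ank was lost without FAD DKO replicate 1 (0.0612), replicate 2 (0.0779) or replicate 3 (0.117), and without wild type replicate 2 (0.1002) or replicate 3 (0.127). Both calls were also lost when every probe set was tested (adjusted p = 0.0749 for Itgax and 0.0670 for Ank), and that of Itgax in a fit of only the 2 groups (0.0569). A fit blocked by replicate number called neither gene. When 1 array was left out the log2 difference stayed between 1.98 and 2.36 for Itgax and between 1.38 and 1.57 for Ank. Without FAD replicate 2, 4 of the 9 genes were called, where fits that left out 1 array called between 2 and 28 of 22180 genes. That array is in neither group compared and enters only through the spread estimated over all groups.

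FAD DKO against FAD is the contrast for deletion of Hdac1 and Hdac2 in the amyloid model, and these groups also differ in Cx3cr1CreERT2 itself. Of the 9 genes, 7 had a difference above 0, as did 53.2% of all genes, and the median was 0.18 (log2) against 0.01 over all genes. In limma 0 of 9 passed, where 0.0225% of all genes did, and 1 of 9, Ank, had an unadjusted p under 0.05, where 8.1% of all genes did and 3.69% were higher. In 0 of 9 genes were the 2 groups free of overlap, against 11.9% of all genes, or 5.38% with FAD DKO higher. The intervals left room for sizeable differences, from 0.96-fold to 3.10-fold for Gpnmb and from 0.97-fold to 2.35-fold for Itgax, and were narrowest for Baiap2l2 and Cd9. For Cd9 the interval ran from 0.791-fold to 1.19-fold. Without FAD replicate 2 the median of the 9 genes was 0.46, and still 0 passed.

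FAD replicate 2 stood apart from the other FAD arrays for these genes. It was the highest of the 3 FAD arrays for 8 of the 9 genes, with Cd9 as the exception, and replicate 1 was the lowest for 7. With each gene centred on its own mean over the 9 arrays, the mean of the 9 genes was 0.46, 0.46 and 0.60 in the FAD DKO arrays, -0.07, 0.69 and 0.06 in the FAD arrays, and -0.66, -0.75 and -0.80 in the wild type arrays. FAD replicate 2 was thus above all FAD DKO arrays and the other 2 FAD arrays were below them. The median SD of the 9 genes was 0.286 among FAD DKO arrays, 0.335 among FAD arrays and 0.228 among wild type arrays, whereas the median SD over all genes was 0.109, 0.107 and 0.107 in the same groups. The SD was larger in FAD than in FAD DKO for 7 of the 9 genes; this was not tested.

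**Figure D3:**
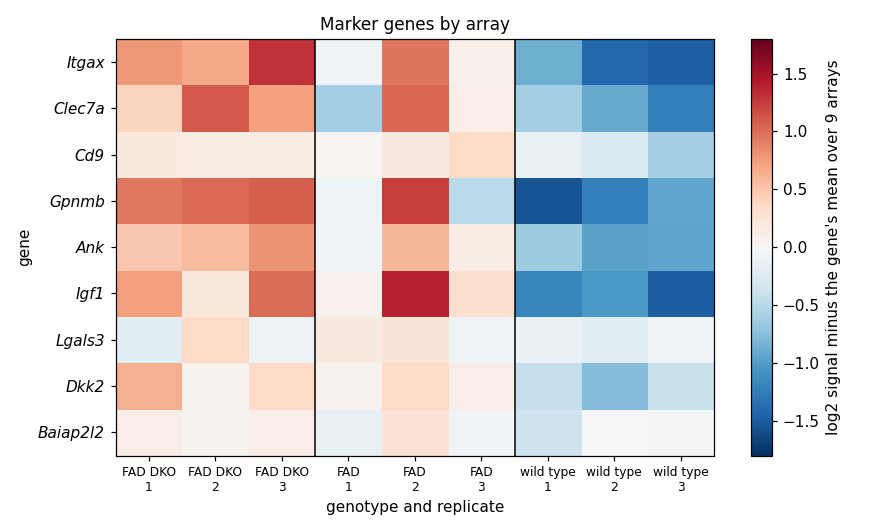
Log2 signal of each marker gene (rows) minus its mean over 9 arrays, in each array (columns, by genotype and replicate); red is above and blue below the gene's mean. FAD replicate 2 resembles the FAD DKO arrays in colour, FAD replicates 1 and 3 are paler, and Lgals3 and Baiap2l2 stay pale throughout.

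The genes whose pattern lay closest to the mean of the 9 markers were Wfdc17, Tnfsf8, St8sia6, Flt1 and Nceh1, with a root mean square difference between 0.168 and 0.197 (log2) over the 9 arrays. Of the markers themselves Ank lay closest, at 0.12, and Gpnmb farthest, at 0.518. Tnfsf8 encodes CD30 ligand, St8sia6 a sialyltransferase and Nceh1 a neutral cholesterol ester hydrolase. Flt1, a receptor for VEGF, read 6.05, 5.85 and 5.99 in FAD DKO, 5.60, 5.76 and 5.30 in FAD, and 4.59, 4.72 and 4.79 in wild type. It rose in FAD DKO against wild type by 1.26 on the log2 scale (limma adjusted p = 0.00872), with a wild type level dimmer than the median probe set; it was also on the list of endothelial and mural markers, where no other gene passed. Wfdc17 encodes a small secreted whey acidic protein domain protein. It read 6.46, 6.83 and 6.78 in FAD DKO, 6.34, 7.26 and 6.34 in FAD, and 5.79, 5.78 and 5.64 in wild type. FAD replicate 2 was its highest array, as for the mean of the markers. The 5 genes were picked for likeness to that mean over the 9 arrays, so their shared pattern is no separate result.

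A wider list of 32 other plaque-associated genes, of which 30 were measured, was set beside the core markers. In FAD DKO against wild type 30 of 30 lay above 0, as did 51.3% of all genes, with a median log2 difference of 0.37, and 6 rose in limma, where 0.0947% of all genes did. These were Cst7, the protease inhibitor cystatin F (3.79, adjusted p = 0.0152), the fatty acid binding protein gene Fabp5 (2.69), the lipoprotein lipase gene Lpl (2.65), the chemokine gene Ccl6 (1.76), Ch25h, which makes an oxysterol (1.72), and the lipid carrier gene Apoe (1.43). The count was 1 without any one of the FAD DKO arrays or without wild type replicate 2 or 3, 2 without FAD replicate 3 and 3 without wild type replicate 1. In FAD against wild type 29 of 30 lay above 0, as did 47.9% of all genes, with a median of 0.49, and 1 rose, Lpl (2.98, adjusted p = 0.000234), where 0.0316% of all genes did. In FAD DKO against FAD 19 of 30 lay above 0, as did 53.2% of all genes, with a median of 0.04, and 0 passed in limma, where 0.0225% of all genes did. At an unadjusted p under 0.05 there were 6 of 30, 3 in each direction, where 8.1% of all genes had such a p.

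Single genes of the wider list went both ways between FAD DKO and FAD. Cst7 read 10.65, 10.63 and 11.14 in FAD DKO and 8.65, 10.52 and 9.75 in FAD, a log2 difference of 1.17 without overlap (limma adjusted p = 0.504). The chemokine gene Ccl3 read 11.20, 11.20 and 11.09 in FAD DKO and 11.76, 11.80 and 11.68 in FAD, a difference of -0.58 (adjusted p = 0.159). Ccl4, another chemokine gene, read 10.28, 10.28 and 10.33 in FAD DKO and 11.12, 11.02 and 10.89 in FAD, a difference of -0.72 (adjusted p = 0.259). The cathepsin gene Ctsl read 10.17, 10.65 and 10.56 in FAD DKO and 10.77, 10.88 and 10.66 in FAD, a difference of -0.31 (adjusted p = 0.589). The FAD DKO and FAD arrays of these 4 of the 30 genes did not overlap, 1 higher and 3 lower. Over all genes, 11.9% did not overlap in either direction, and none of the 4 passed. The 3 comparisons share arrays, so the values of a gene in one are not independent of those in another.

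**Figure D4:**
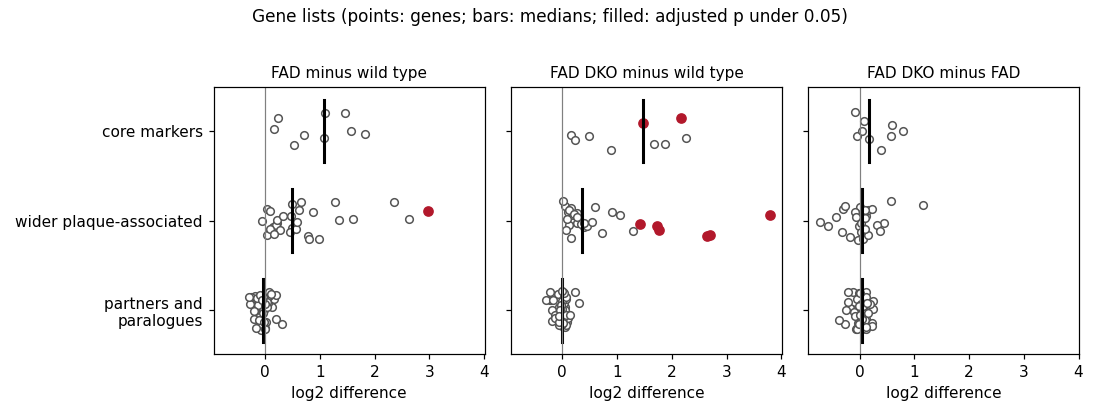
Log2 differences of the 9 core markers, 30 wider plaque-associated genes and 47 partners and paralogues (points, spread vertically for legibility; bars are medians; filled points passed an adjusted p under 0.05) in the 3 comparisons. Partner genes lie between -0.38 and 0.31 in every comparison.

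Receptors, partners and paralogues of the markers gave no calls. Of 48 such genes 47 were measured, and in limma 0 of 47 passed in each comparison, where 0.14% of all genes did in FAD DKO against wild type, 0.0406% in FAD against wild type and 0.0225% in FAD DKO against FAD. At an unadjusted p under 0.05 there were 5 of 47 in each, where 8.14%, 8.43% and 8.1% of all genes had such a p in the same order. Their median log2 differences were -0.0033 for FAD DKO minus wild type, -0.04 for FAD minus wild type and 0.04 for FAD DKO minus FAD. Itgb2, the beta subunit that pairs with Itgax, read 9.55, 9.65 and 9.58 in FAD DKO, 9.64, 9.75 and 9.73 in FAD, and 9.66, 9.73 and 9.73 in wild type. Its log2 difference between FAD DKO and wild type was -0.12, with a 95% interval from -0.26 to 0.03. The other alpha subunits on the list, Itgam, Itgal and Itgad, stood at log2 differences between -0.01 and 0.09 in FAD DKO against wild type.

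Among signalling partners of Clec7a, Plcg2, a phospholipase downstream of Syk, read 8.27, 8.27 and 8.37 in FAD DKO, 8.44, 8.55 and 8.44 in FAD, and 8.52, 8.57 and 8.48 in wild type (log2 difference -0.22 between FAD DKO and wild type, limma adjusted p = 0.375). Syk, Card9, Bcl10 and Malt1 stood between -0.10 and 0.01 in that comparison. Of the osteopontin receptor genes, Itgav was at -0.21 in FAD DKO against wild type (adjusted p = 0.454) and Itgb3 at -0.24 in FAD DKO against FAD (adjusted p = 0.383). The IGF1 receptor gene Igf1r was at -0.19 and Irs2, its intracellular adaptor, at -0.30 in FAD DKO against wild type (adjusted p = 0.715 and 0.417).

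Slc20a1, a phosphate importer listed beside Ank, read 7.17, 7.16 and 7.06 in FAD DKO and 7.66, 7.29 and 7.55 in FAD, without overlap (log2 difference -0.38, limma adjusted p = 0.349). Dkk1, a paralogue of Dkk2, was at 0.22 in FAD DKO against wild type (adjusted p = 0.491), and the Wnt co-receptor genes Lrp5 and Lrp6 were at -0.05 and -0.13. The tetraspanin genes Cd81, Cd82, Cd37, Cd53 and Cd151 lay between -0.06 and 0.03 in that comparison, against 0.48 for Cd9. The other galectin genes lay between -0.22 and 0.00, the I-BAR paralogues Baiap2, Baiap2l1 and Mtss1 between -0.18 and 0.00, and Pmel, a homologue of Gpnmb, at -0.06.

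Homeostatic microglial genes were set against the markers as the programme of resting microglia. Of 15 measured, 12 lay below 0 in FAD DKO against wild type (median log2 difference -0.05) and 14 in FAD against wild type (median -0.09), where 48.7% and 52.1% of all genes did. In limma 0 of 15 passed in either comparison, where 0.14% and 0.0406% of all genes did. At an unadjusted p under 0.05 there were 4 of 15 in FAD DKO against wild type and 2 of 15 in FAD against wild type, all lower, where 8.14% and 8.43% of all genes had such a p in either direction. In FAD DKO against FAD 9 of 15 lay above 0 and 6 below (median 0.01), where 53.2% of all genes lay above. None of the 15 passed there, where 0.0225% of all genes did. The purinergic receptor gene P2ry12 averaged 11.91 ± 0.0121 in FAD DKO, 12.03 ± 0.0378 in FAD and 12.09 ± 0.0640 in wild type (log2 signal, SD, n = 3). Tmem119 was lowest in FAD, at 9.51 ± 0.0579 in FAD DKO, 9.22 ± 0.252 in FAD and 9.47 ± 0.0702 in wild type. Both orders occurred on the list: the means of Selplg and Slco2b1 were also lowest in FAD, and that of Cx3cr1 was lowest in FAD DKO. Cx3cr1, from which the Cre is driven, was at -0.33 in FAD DKO against wild type (adjusted p = 0.133), with all FAD DKO arrays below all others.

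Markers of other cells were read on the same arrays. Of 14 monocyte and neutrophil genes all were measured, and their mean log2 signal was 5.94, 7.65 and 6.99 in FAD DKO, 7.11, 7.10 and 7.07 in FAD, and 6.46, 7.03 and 7.05 in wild type. Their summed linear signal ran from 1298 to 6504 in FAD DKO, from 3720 to 3875 in FAD and from 2080 to 4115 in wild type. The list was lowest in FAD DKO replicate 1 and highest in FAD DKO replicate 2, in which the centred core markers had the same mean, 0.46, and medians of 0.48 and 0.35. Single markers went both ways between these arrays, with Clec7a and Lgals3 higher in replicate 2 and Igf1 and Dkk2 higher in replicate 1. FAD replicate 2 lay between the other FAD arrays on this list. Of the 14 genes, 13 lay above 0 in FAD against wild type (median log2 difference 0.27), where 47.9% of all genes did. In FAD DKO against wild type 10 of 14 did (median 0.05), where 51.3% of all genes did. In FAD DKO against FAD 3 of 14 did (median -0.20), where 53.2% of all genes did.

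Perivascular and border macrophage genes, 10 of 10 measured, summed to between 747 and 840 in FAD DKO, 864 and 911 in FAD, and 960 and 1051 in wild type (linear signal). The brightest of them, Stab1, a scavenger receptor gene, averaged 8.70 ± 0.12 in FAD DKO, 8.95 ± 0.154 in FAD and 9.27 ± 0.0653 in wild type (log2 signal, SD, n = 3). The mean log2 signal of the whole list overlapped among the genotypes, at 5.45 to 5.65 in FAD DKO, 5.54 to 5.70 in FAD and 5.60 to 5.75 in wild type, and 4 of the genes were dimmer than the median probe set. Oligodendrocyte genes, 9 of 10 measured, summed to between 373 and 409 in FAD DKO, 366 and 381 in FAD, and 343 and 396 in wild type. Dendritic cell genes, some of whose cells express Itgax, had 7 of 8 measured and summed to between 541 and 597 in FAD DKO, 492 and 557 in FAD, and 541 and 574 in wild type. Astrocyte genes, 8 of 8 measured, summed to between 397 and 437 in FAD DKO, 413 and 534 in FAD, and 437 and 452 in wild type. Neuron, endothelial and mural, and lymphocyte genes summed to between 192 and 320 on every array, overlapped among the genotypes, and were dimmer than the median probe set in 6 of 8, 4 of 8 and 7 of 8 measured genes. No gene reads 0 on this log2 scale, so absence of a marker could not be read, and the part of these cells in the differences was not tested.

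**Figure D5:**
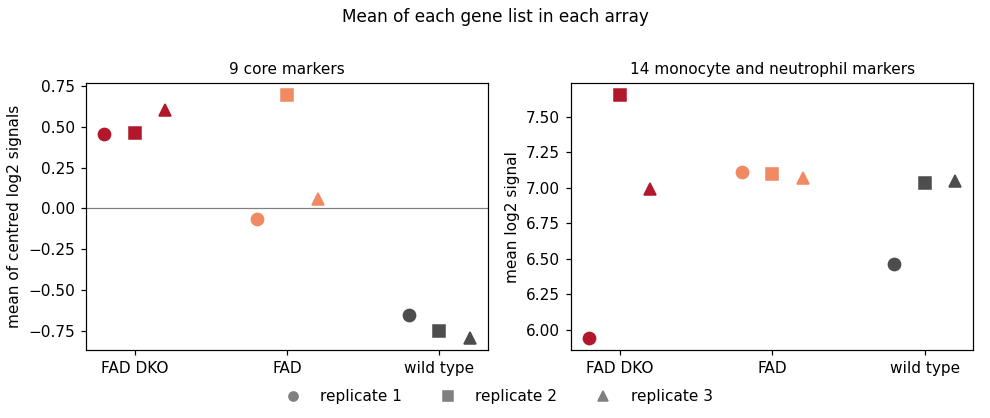
Left, mean of the 9 core markers, each centred on its own mean over 9 arrays (log2); right, mean log2 signal of 14 monocyte and neutrophil markers, with 1 point per array. FAD DKO replicates 1 and 2 lie at 5.94 and 7.65 on the right and share a mean of 0.46 on the left, over markers that differ in both directions between them.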

How the data were processed

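The authors deposited log2 signals per probe set for 9 arrays. RMA was used, per the submitters' processing notes; its version, the build and the annotation were not given in the sources used here. RMA corrects background, equalises arrays and summarises probes, so dim differences are compressed. Per the labels' protocols, RNA was amplified before labelling. Detection over background was not analysed.

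A single symbol belonged to 23521 of 41345 probe sets, several to 1814, and 16010 had no entry in the gene table. Taking the brightest per gene left 22180 genes. One fit held all 9 arrays with a mean per genotype (limma 3.58.1, R 4.3.3, lmFit and eBayes, two-sided). P-values were Benjamini-Hochberg adjusted over all genes and called under 0.05; intervals cover 95%. The procedure was tested on simulated data. Between the closest pair of arrays, the SD of differences was 0.335, and none duplicated another. RefSeq tables (GRCm38.p6) gave names, for 23328 probe sets, and promoters. Deviations of same-numbered arrays correlated only between -0.110 and 0.122, so replicate numbers were not treated as pairs.

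All 10 markers were named, with list genes that passed and up to 4 per list and comparison of smallest p; other list members appear only in ranges. The likest genes were the 5 of smallest root mean square difference, unnamed models and small RNAs left out. Members and lists were chosen with earlier results of these data known. Alternatives were a low-signal filter, extra quantile normalization, trended and robust variance, a fit of just 2 groups, weighting of arrays, averaging or keeping all probe sets, blocking by replicate number, and omission of single arrays.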

Additional observations from a re-analysis of the deposited data

How the results depend on the processing

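With 3 arrays per group, single arrays of each group moved the results. Leaving out FAD replicate 2 shifted the marker median most in FAD minus wild type and in FAD DKO minus FAD. In FAD DKO minus wild type, the calls of Itgax and Ank were both lost without any 1 of the FAD DKO arrays. Both were also lost without wild type replicate 2 or 3. Under every alternative run, FAD minus wild type kept the direction of each marker tested. So did FAD DKO minus wild type, except Lgals3 without FAD DKO replicate 2. The low-signal filter did not test Dkk2 and Baiap2l2. The causes of the following shifts were not tested, beyond the smaller number of arrays or genes in some fits. Calls over all genes for FAD minus wild type were 9, and became 22 with array weights, 33 with the low-signal filter, 5 with only the groups compared and 43 with trended variance; leaving out 1 array gave 8 to 12. Marker calls there were 0, and 1 (Ank) with the low-signal filter or trended variance; leaving out 1 array gave 0 throughout. The wider list had 1 call, and 4 with array weights, 6 with the low-signal filter, 7 with trended variance and 1 to 2 when 1 array was left out. The median of the markers ran from 0.67 without FAD replicate 2 to 1.22 without FAD replicate 1.

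For FAD DKO minus wild type the 31 calls over all genes became 82 with array weights, 14 with every probe set, 117 with the low-signal filter, 13 with only 2 groups, 124 with trended variance and 2 (without FAD DKO replicate 3) to 28 when 1 array was left out. The 2 marker calls became 5 with array weights, 0 with every probe set, 4 with the low-signal filter, 5 with trended variance and 0 to 4 when 1 array was left out. Calls in the wider list were 6, and 2 with every probe set or only 2 groups, and 1 to 6 when 1 array was left out. The median of the markers stayed between 1.38 and 1.57. Adjusted p for Gpnmb was 0.0240 with the low-signal filter, which left Dkk2 and Baiap2l2 untested, and 0.00417 without FAD replicate 2. Lgals3 ran from -0.0086 to 0.26 when 1 array was left out.

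For FAD DKO minus FAD the 5 calls over all genes became 11 with the low-signal filter, 0 with only 2 groups, 3 with quantile normalization, 12 with trended variance and 0 to 5 when 1 array was left out. The wider list went to 1 call with the low-signal filter or trended variance. The median of the markers ran from 0.074 without FAD DKO replicate 1 to 0.46 without FAD replicate 2. Leaving out 1 array turned Cd9 (-0.12 to 0.042), Igf1 (-0.20 to 0.46, negative without FAD replicate 1, FAD replicate 3 at -0.10 or FAD DKO replicate 3 at -0.13) and Lgals3 (-0.24 to 0.025). Partner and paralogue calls stayed at 0 in each comparison.

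Same-numbered arrays correlated between -0.110 and 0.122 over 9 pairs of arrays in their deviations from the group means, and 1 of 9 exceeded 0.1. With the replicate block, FAD DKO minus wild type had 11 calls over all genes, 0 among the markers and 2 in the wider list, and FAD DKO minus FAD had 2 over all genes. In 2 of the 9 comparisons of an array with the arrays of another group, the same number correlated best.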
